A study of Mus musculus with 2 samples.

Results

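Imprinted genes are transcribed from only the maternal or only the paternal copy, and 38 of them were followed here, of 32285 genes in the deposited table. The members were taken by gene symbol from a list given for this work, 37 by symbol and *Nespas* by its gene identifier, because the table lists it as *Gnasas1*. By the allele usually expressed, 21 were grouped as paternal, 11 as maternal and 6 as variable, the last being genes whose expressed allele differs between tissues or transcripts. The data were 1 RNA library and 1 ATAC library from the same nuclei of whole mouse testes of the embryonic stage E14.5. Every embryo carried *Nr5a1-cre*, a recombinase under the promoter of a gene of steroidogenic and supporting cells, and *Rosa-tdTomato*, a reporter that the recombinase switches on; no embryo without them was measured in these libraries. How many embryos were pooled was not stated in the sources used here. With 1 library per assay there is no replicate, so no p-value is given. All intervals below are 95% intervals that cover counting error only.

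Imprints are DNA methylation marks laid down separately in the egg and sperm lineages, and somatic cells keep them for life. In the germ line the inherited marks are erased before and around the time the gonad forms, and male germ cells write the paternal pattern later in fetal life. In fetal somatic tissue many imprinted genes control growth and differentiation. The germ-like nuclei were therefore compared with each somatic group, split by the allele usually expressed. Neither methylation nor the allele of origin was measured here.

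After filters, 7198 nuclei were clustered jointly on RNA and accessibility with the members and their peaks kept out. The sums used the 6323 nuclei below the automatic doublet threshold. Germ-like nuclei numbered 745, with 11060560 UMIs (unique molecular identifiers, 1 for each captured RNA molecule) and a median of 14058 per nucleus. The 6 somatic groups of at least 300 nuclei were Sertoli-like (706 nuclei), Leydig-like (640), progenitor-like (678), surface epithelium-like (505), mesonephric mesenchyme-like (336) and a large cluster of 2441 nuclei. The latter held progenitor markers but had the contractile gene *Myh11* among its leading genes, and is named Tacr3-led after its first. Contractile markers summed to 324 CPM there, 286 CPM in the progenitor-like group, whose leading genes included the cell division genes *Ckap2l* and *Knl1*, and 302 CPM in surface epithelium-like nuclei. Their UMI totals ran from 2329714 to 15220194. Statements on somatic groups, and on the highest or lowest of them, cover these 6 unless a smaller group is named. The 8 germ markers, among them *Dazl* and *Ddx4*, summed to 1901 UMIs per 1000000 UMIs of the group (CPM) in germ-like nuclei and to 33.1 to 46.3 in the somatic groups, and *Sycp1*, *Morc1* and *Tdrd9*, known from the germ line, were among the leading genes of the cluster. The markers of the mesonephric tubule summed to 270.0 CPM in germ-like nuclei and to 10.2 to 122 in the somatic groups. Of the germ-like sum *Cdh1* gave 154 CPM, *Lhx1* 66.8 and *Epcam* 46.0, whereas *Emx2* gave 0.904. The part of these markers in the results was not tested.

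UMIs of somatic markers were also found in germ-like nuclei. Summed, Sertoli markers reached 1.63% of their Sertoli-like level in germ-like nuclei, Leydig markers 3.60%, surface epithelium markers 1.43% and mesonephric mesenchyme markers 0.532%. Single markers spread widely, from 0.457% to 51.5% for Sertoli and 1.72% to 13.7% for Leydig markers. The range was 0.591% to 4.91% for surface epithelium and 0.349% to 37.4% for mesonephric mesenchyme markers. Progenitor markers reached 15.1% of their level in the Tacr3-led group and 17.4% of that in the progenitor-like group, where *Ptch1* alone gave 354 of the 473 CPM. A further 229 germ-like nuclei were over the automatic doublet threshold and were left out. In those, 33 somatic markers summed to 2843 CPM against 860 CPM in the nuclei kept, and the germ markers to 918 against 1901 CPM. In summed counts, fewer transcribing nuclei and less RNA per nucleus cannot be told apart.

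Against 4 of the 6 somatic groups, most of the members tested were lower in germ-like nuclei. A gene was called when it differed by 2-fold or more with at least 50 UMIs over both groups. Against the Tacr3-led group 22 of 33 tested members were lower in germ-like nuclei and 4 were higher, where 22.0% and 27.3% of all genes tested were. Against progenitor-like nuclei 21 of 33 were lower and 4 higher (19.5% and 29.0% of all genes), against surface epithelium-like nuclei 21 of 33 and 5 (18.4% and 26.1%), and against mesonephric mesenchyme-like nuclei 21 of 32 and 3 (16.7% and 31.4%). The Leydig-like comparison gave 15 lower and 7 higher of 33, beside 20.1% and 28.5% of all genes. Against Sertoli-like nuclei the members divided more evenly, with 9 of 32 lower and 7 higher, where 18.6% and 23.2% of all genes were called.

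The median log2 ratio of germ-like over somatic level was -1.56 for the members against the Tacr3-led group, -1.43 against progenitor-like, -1.83 against surface epithelium-like, -1.80 against mesonephric mesenchyme-like, -0.93 against Leydig-like and -0.23 against Sertoli-like nuclei. The median over all genes tested lay between 0.18 and 0.45 in the same comparisons, and why it was positive was not tested. Of 32 members tested in all 6 comparisons, 8 were lower in germ-like nuclei than in every somatic group, namely *Kcnq1ot1*, *Meg3*, *Rian*, *Sgce*, *Grb10*, *Airn*, *Nnat* and *Gnas*, where 5.73% of all genes were. Another 3, *Snrpn*, *Snhg14* and *Mcts2*, were higher than in every somatic group, where 14.2% of all genes were. All 3 that were higher are usually expressed from the paternal allele, as are 18 of the 32 tested, beside 8 maternal and 6 variable. Maternal *Slc22a18* was under the minimum for a call, with 44 UMIs in germ-like nuclei and 0 to 5 in each somatic group. Of the 8 that were lower, 4 are paternal, 2 maternal and 2 variable. Members of 1 domain may not be separate observations. *Snrpn* and *Snhg14* share an annotated promoter window, and *Meg3* and *Rian* lie near each other on the same strand.

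By allele, the paternal members lower in germ-like nuclei numbered 4 of 18 against Sertoli-like nuclei, where 18.6% of all genes were lower, and 13 of 19 against the Tacr3-led group, where 22.0% were. Higher paternal members numbered 3 to 5 of 18 or 19 in each comparison, where 23.2% to 31.4% of all genes were higher. The maternal members lower numbered 2 of 8 against Sertoli-like and 7 of 8 against mesonephric mesenchyme-like nuclei (16.7% of all genes), and those higher 0 to 2 of 8 in each comparison, beside the same shares of all genes. Of the 6 variable members 3 or 4 were lower in each comparison, where 16.7% to 22.0% of all genes were, and none was higher. With 8 maternal members tested, these shares carry wide counting error, and the difference between the classes was not tested.

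**Figure D1:**
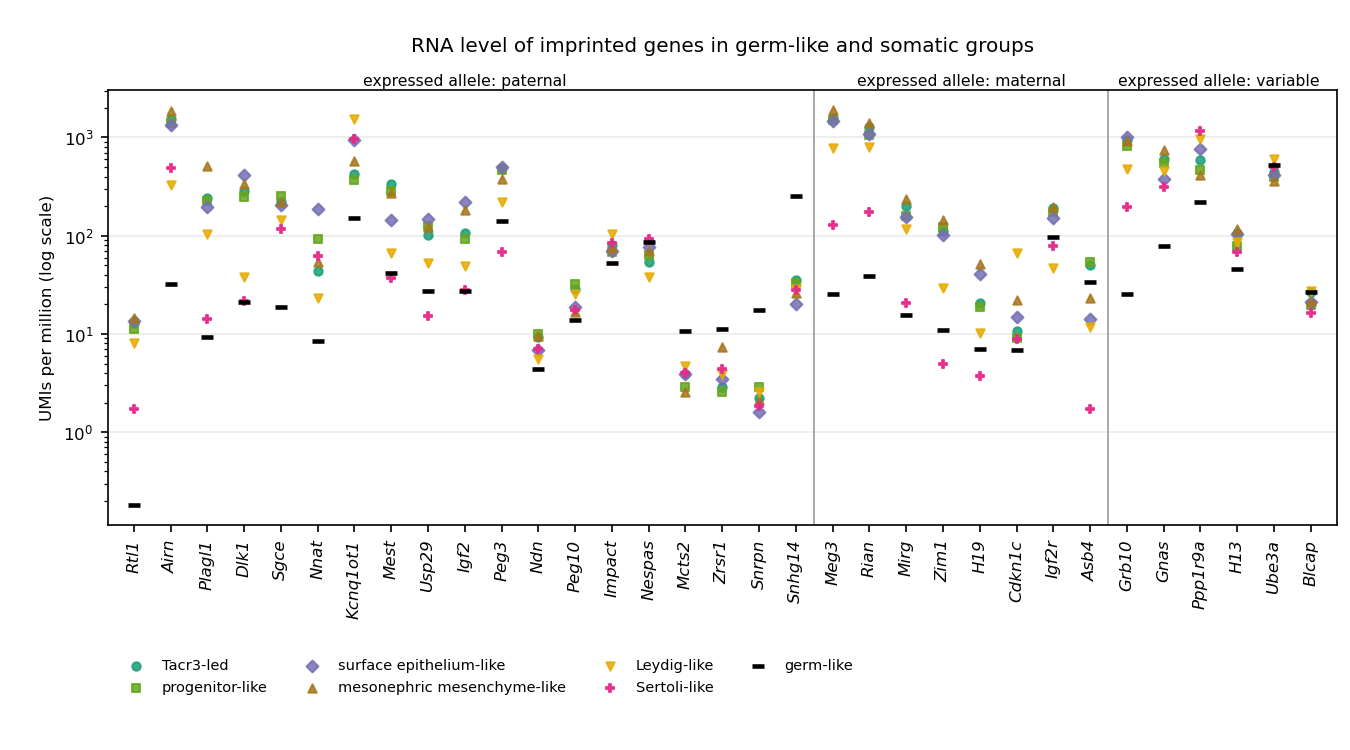
RNA level (CPM, log axis) of the 33 members with at least 200 UMIs, in germ-like nuclei (black bars) and the 6 somatic groups (coloured symbols), in panels by the allele usually expressed. Germ-like nuclei sit under every somatic symbol for *Meg3* (25.7 CPM) and above every one for *Snhg14* (254 CPM).

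*Igf2*, a fetal growth factor, and its neighbour *H19* were highest, of the 6 somatic groups, in surface epithelium-like and mesonephric mesenchyme-like nuclei. *Igf2* was at 27.7 CPM in germ-like nuclei, 28 in Sertoli-like, 49.5 in Leydig-like, 106 in Tacr3-led, 92.4 in progenitor-like, 219 in surface epithelium-like and 182 in mesonephric mesenchyme-like nuclei. Germ-like and Sertoli-like nuclei had the lowest levels and did not differ beyond counting error, with a ratio of 0.987 (95% interval 0.823 to 1.19). *H19*, a maternally expressed non-coding RNA that shares enhancers with *Igf2*, was at 7.05 CPM in germ-like nuclei, 3.7 in Sertoli-like, 10.2 in Leydig-like, 20.8 in Tacr3-led, 19 in progenitor-like, 41.2 in surface epithelium-like and 51.9 in mesonephric mesenchyme-like nuclei. The highest somatic level of *H19* was 14 times the lowest, and both genes had their lowest somatic level in Sertoli-like nuclei.

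The *Kcnq1* domain is controlled by *Kcnq1ot1*, a long paternal transcript that silences its neighbours. *Kcnq1ot1* (chr7:143203458-143296549, minus strand) was at 153 CPM in germ-like nuclei, 965 in Sertoli-like, 1527 in Leydig-like, 426 in Tacr3-led, 373 in progenitor-like, 937 in surface epithelium-like and 573 in mesonephric mesenchyme-like nuclei. It was lower in germ-like nuclei than in every somatic group, by the most against Leydig-like nuclei with a ratio of 0.10 (95% interval 0.095 to 0.105). *Cdkn1c*, a maternally expressed inhibitor of the cell cycle, was at 6.87 CPM in germ-like nuclei, 8.96 in Sertoli-like, 66.8 in Leydig-like, 10.7 in Tacr3-led, 9.09 in progenitor-like, 15 in surface epithelium-like and 22.3 in mesonephric mesenchyme-like nuclei. Leydig-like nuclei stood apart for *Cdkn1c*, and were also the highest of the compared groups for *Kcnq1ot1*. In the small Pax8-led group of 69 nuclei the levels were 1813 CPM of *Kcnq1ot1* and 45 CPM of *Cdkn1c*.

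The other members of this domain were close to the detection limit. *Slc22a18*, a transporter, had 44 UMIs in germ-like nuclei (3.98 CPM, 95% interval 2.89 to 5.34) and 0 to 5 in each somatic group compared. *Ascl2*, a transcription factor of the placenta, had 15 UMIs in germ-like nuclei and at most 2 in a compared somatic group. *Phlda2*, which restrains placental growth, had 5 UMIs in germ-like nuclei and at most 1 elsewhere among them. None of the 3 reached the 50 UMIs needed for a call.

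In the *Dlk1*-*Dio3* domain the maternal non-coding RNAs *Meg3*, *Rian* and *Mirg*, hosts of small RNAs, differed by 8.07-fold or more between somatic groups. *Meg3* (Ensembl gene ENSMUSG00000021268, chr12:109541001-109571726 in GRCm38, plus strand) was at 25.7 CPM in germ-like nuclei, 129.7 in Sertoli-like, 775 in Leydig-like, 1593 in Tacr3-led, 1488 in progenitor-like, 1458 in surface epithelium-like and 1912 in mesonephric mesenchyme-like nuclei. *Rian* was at 39.1 CPM in germ-like nuclei, 175 in Sertoli-like, 806 in Leydig-like, 1262 in Tacr3-led, 1055 in progenitor-like, 1095 in surface epithelium-like and 1412 in mesonephric mesenchyme-like nuclei. *Mirg* was at 15.6 CPM in germ-like nuclei, 20.5 in Sertoli-like, 118 in Leydig-like, 198 in Tacr3-led, 158 in progenitor-like, 154 in surface epithelium-like and 238 in mesonephric mesenchyme-like nuclei. Among the 6 compared somatic groups, all 3 were highest in mesonephric mesenchyme-like and lowest in Sertoli-like nuclei. The *Meg3* level of germ-like nuclei was 0.0134 (95% interval 0.0119 to 0.0151) of that in mesonephric mesenchyme-like and 0.198 (95% interval 0.173 to 0.226) of that in Sertoli-like nuclei. *Mirg* did not pass 2-fold against Sertoli-like nuclei, with a ratio of 0.759 (95% interval 0.605 to 0.954).

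*Dlk1*, a membrane protein of the Notch ligand family that restrains differentiation, was at 21.1 CPM in germ-like nuclei, 21.6 in Sertoli-like, 37.7 in Leydig-like, 284 in Tacr3-led, 248 in progenitor-like, 410.4 in surface epithelium-like and 336 in mesonephric mesenchyme-like nuclei. Surface epithelium-like nuclei were the highest, and germ-like and Sertoli-like nuclei did not differ beyond counting error (ratio 0.974, 95% interval 0.791 to 1.2). *Rtl1*, a gene derived from a retrotransposon, was at 0.181 CPM in germ-like nuclei, 1.71 in Sertoli-like, 8.16 in Leydig-like, 12.9 in Tacr3-led, 11.2 in progenitor-like, 13.6 in surface epithelium-like and 14.6 in mesonephric mesenchyme-like nuclei. Only 2 UMIs of *Rtl1* came from germ-like nuclei, so it was lower than in each of the 4 groups where it could be tested and was under the 50 UMIs needed against Sertoli-like and mesonephric mesenchyme-like nuclei. *Dio3*, which inactivates thyroid hormone, had 4 UMIs in germ-like nuclei and at most 1 in each compared somatic group.

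*Peg3* and its neighbours encode mainly zinc finger proteins. *Peg3* was at 141 CPM in germ-like nuclei, 69 in Sertoli-like, 221 in Leydig-like, 488 in Tacr3-led, 461 in progenitor-like, 503 in surface epithelium-like and 375 in mesonephric mesenchyme-like nuclei. *Usp29*, a ubiquitin protease read from the same promoter region, was at 27.3 CPM in germ-like nuclei, 15.2 in Sertoli-like, 52.7 in Leydig-like, 101 in Tacr3-led, 125 in progenitor-like, 147 in surface epithelium-like and 122 in mesonephric mesenchyme-like nuclei. *Zim1*, the maternal member of the domain, was at 10.9 CPM in germ-like nuclei, 4.98 in Sertoli-like, 29.4 in Leydig-like, 112 in Tacr3-led, 122 in progenitor-like, 102 in surface epithelium-like and 143 in mesonephric mesenchyme-like nuclei. All 3 had a lower level in Sertoli-like than in germ-like nuclei and a higher one in the other 5 compared groups. The germ-like over Sertoli-like ratio passed 2-fold for *Peg3* (2.04, 95% interval 1.85 to 2.27) and *Zim1* (2.2, 95% interval 1.5 to 3.3).

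The *Peg10* domain did not move as a unit. *Sgce*, which encodes a sarcoglycan of the cell membrane, was at 18.6 CPM in germ-like nuclei, 116 in Sertoli-like, 143 in Leydig-like, 220.2 in Tacr3-led, 255 in progenitor-like, 205 in surface epithelium-like and 221 in mesonephric mesenchyme-like nuclei. *Peg10*, which starts beside *Sgce* on the opposite strand, was at 13.7 CPM in germ-like nuclei, 17.6 in Sertoli-like, 25.5 in Leydig-like, 28.8 in Tacr3-led, 32.5 in progenitor-like, 18.6 in surface epithelium-like and 16.7 in mesonephric mesenchyme-like nuclei. *Sgce* was lower than in every somatic group, with ratios from 0.0731 to 0.16, whereas *Peg10* passed 2-fold only against the Tacr3-led and progenitor-like groups. *Asb4*, a maternal gene for an ankyrin repeat protein, was at 33.7 CPM in germ-like nuclei, 1.71 in Sertoli-like, 11.7 in Leydig-like, 49.9 in Tacr3-led, 53.9 in progenitor-like, 14.3 in surface epithelium-like and 23.2 in mesonephric mesenchyme-like nuclei. Its germ-like level was 19.8 (95% interval 11.2 to 38.6) times the Sertoli-like level and lay below the Tacr3-led and progenitor-like levels. *Ppp1r9a*, which encodes an actin-binding scaffold, was at 219 CPM in germ-like nuclei, 1166 in Sertoli-like, 959.8 in Leydig-like, 587 in Tacr3-led, 471 in progenitor-like, 767 in surface epithelium-like and 417 in mesonephric mesenchyme-like nuclei, with the highest level in Sertoli-like nuclei.

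*Mest*, *Plagl1* and *Grb10* act in fetal growth. *Mest*, an enzyme of the hydrolase fold, was at 41.4 CPM in germ-like nuclei, 36.8 in Sertoli-like, 66 in Leydig-like, 333 in Tacr3-led, 282 in progenitor-like, 144 in surface epithelium-like and 271 in mesonephric mesenchyme-like nuclei. *Plagl1*, a zinc finger transcription factor, was at 9.22 CPM in germ-like nuclei, 14.4 in Sertoli-like, 103 in Leydig-like, 243 in Tacr3-led, 228 in progenitor-like, 196 in surface epithelium-like and 515 in mesonephric mesenchyme-like nuclei. *Grb10* (chr11:11930508-12038683, minus strand), an adaptor that restrains insulin and IGF receptor signalling, was at 25.5 CPM in germ-like nuclei, 198 in Sertoli-like, 480.2 in Leydig-like, 935 in Tacr3-led, 818 in progenitor-like, 1019 in surface epithelium-like and 929 in mesonephric mesenchyme-like nuclei. *Plagl1* had the widest spread over the somatic groups of the 33 members, 35.9-fold between mesonephric mesenchyme-like and Sertoli-like nuclei. *Grb10* was lower in germ-like nuclei than in every somatic group, with ratios from 0.025 to 0.129.

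*Airn* is a paternal antisense transcript that runs through *Igf2r*, whose product clears IGF2. *Airn* (chr17:12741311-12860136, plus strand) was at 32 CPM in germ-like nuclei, 492 in Sertoli-like, 326 in Leydig-like, 1543 in Tacr3-led, 1395 in progenitor-like, 1329 in surface epithelium-like and 1861 in mesonephric mesenchyme-like nuclei. *Igf2r* (chr17:12682406-12769664, minus strand) was at 97.3 CPM in germ-like nuclei, 79.1 in Sertoli-like, 46.6 in Leydig-like, 190.0 in Tacr3-led, 175 in progenitor-like, 150.3 in surface epithelium-like and 195 in mesonephric mesenchyme-like nuclei. *Airn* was lower in germ-like nuclei than in every somatic group (ratios 0.0172 to 0.0982), while *Igf2r* was 2.09 times the Leydig-like and 1.23 times the Sertoli-like level. Among small groups, pericyte-like nuclei (60) had 3058 CPM of *Airn* and 303 CPM of *Igf2r*. How counting treated strand is not known here, so reads of overlapping pairs such as these may be shared.

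The *Snrpn* domain held 2 of the 3 members that were higher in germ-like nuclei than in every somatic group. *Snrpn* (chr7:59982495-60140219, minus strand), which encodes a protein of the splicing machinery, was at 17.4 CPM in germ-like nuclei, 1.85 in Sertoli-like, 2.55 in Leydig-like, 2.23 in Tacr3-led, 2.87 in progenitor-like, 1.61 in surface epithelium-like and 2.15 in mesonephric mesenchyme-like nuclei. *Snhg14* (chr7:59307924-59975759, minus strand), the long host of snoRNAs that also runs antisense to *Ube3a*, was at 254 CPM in germ-like nuclei, 27.7 in Sertoli-like, 28.6 in Leydig-like, 35.5 in Tacr3-led, 32.7 in progenitor-like, 20 in surface epithelium-like and 26.2 in mesonephric mesenchyme-like nuclei. The germ-like level was 6.08 to 10.8 times the somatic level for *Snrpn* and 7.14 to 12.7 times for *Snhg14*. Somatic levels of either gene differed by less than 2-fold from group to group.

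The gene next to them did not follow. *Ube3a*, a ubiquitin ligase expressed from both alleles outside neurons, was at 522 CPM in germ-like nuclei, 504 in Sertoli-like, 601 in Leydig-like, 446 in Tacr3-led, 398 in progenitor-like, 418 in surface epithelium-like and 364 in mesonephric mesenchyme-like nuclei. It stayed within 2-fold in each comparison. *Ndn*, a MAGE family protein, was at 4.43 CPM in germ-like nuclei, 6.97 in Sertoli-like, 5.61 in Leydig-like, 9.33 in Tacr3-led, 10.1 in progenitor-like, 6.9 in surface epithelium-like and 9.44 in mesonephric mesenchyme-like nuclei, from 49 UMIs in germ-like nuclei. *Magel2*, of the same family, had 2 UMIs in germ-like nuclei and 28 in Leydig-like nuclei, its highest level among the compared groups at 4.76 CPM.

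Shares of nuclei were compared after thinning each to 2000 UMIs. An *Snhg14* UMI was then found in 39% of germ-like nuclei and in 4.78% to 6.4% of each somatic group, and a *Meg3* UMI in 3.9% of germ-like nuclei and in 21.1% to 92.8% of the somatic groups. *Airn* was found in 5.92% of germ-like nuclei and in 41.9% to 94% of the others. Before thinning the germ-like shares were 88.9%, 22.7% and 31.3%, at a median depth of 14058 UMIs against 5814 to 9244 in the somatic groups.

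*Gnas*, which encodes the stimulatory G protein subunit, was at 77.8 CPM in germ-like nuclei, 316 in Sertoli-like, 458 in Leydig-like, 603 in Tacr3-led, 551 in progenitor-like, 378 in surface epithelium-like and 738 in mesonephric mesenchyme-like nuclei. *Nespas*, the paternal transcript antisense to its upstream exons, was at 86.1 CPM in germ-like nuclei, 92 in Sertoli-like, 37.6 in Leydig-like, 54.5 in Tacr3-led, 64 in progenitor-like, 77.1 in surface epithelium-like and 69.5 in mesonephric mesenchyme-like nuclei. *Gnas* was lower in germ-like nuclei than in each group (ratios 0.105 to 0.246), and *Nespas* passed 2-fold only against Leydig-like nuclei (2.29, 95% interval 1.98 to 2.66).

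*Nnat*, a small membrane protein of the endoplasmic reticulum, lies inside *Blcap*. *Nnat* was at 8.5 CPM in germ-like nuclei, 62.7 in Sertoli-like, 23.1 in Leydig-like, 44 in Tacr3-led, 93.5 in progenitor-like, 189 in surface epithelium-like and 54.5 in mesonephric mesenchyme-like nuclei. *Blcap* was at 26.7 CPM in germ-like nuclei, 16.5 in Sertoli-like, 27.5 in Leydig-like, 26.8 in Tacr3-led, 19.8 in progenitor-like, 21.2 in surface epithelium-like and 21.9 in mesonephric mesenchyme-like nuclei. *Nnat* was lower in germ-like nuclei than in each somatic group and *Blcap* within 2-fold of each.

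*Mcts2* and *Zrsr1* are retrogenes, copies made from processed RNA, that sit in introns of host genes. *Mcts2* (chr2:152687035-152687946, plus strand), in *H13*, was at 10.7 CPM in germ-like nuclei, 3.98 in Sertoli-like, 4.76 in Leydig-like, 3.88 in Tacr3-led, 2.87 in progenitor-like, 3.91 in surface epithelium-like and 2.58 in mesonephric mesenchyme-like nuclei. *H13*, a protease that cleaves signal peptides, was at 45.5 CPM in germ-like nuclei, 68.7 in Sertoli-like, 86.5 in Leydig-like, 106 in Tacr3-led, 78.3 in progenitor-like, 103 in surface epithelium-like and 118 in mesonephric mesenchyme-like nuclei. *Zrsr1*, in an intron of *Commd1*, was at 11.3 CPM in germ-like nuclei, 4.41 in Sertoli-like, 3.91 in Leydig-like, 2.89 in Tacr3-led, 2.55 in progenitor-like, 3.45 in surface epithelium-like and 7.3 in mesonephric mesenchyme-like nuclei. *Mcts2* was 2.24 to 4.14 times the somatic level from 118 germ-like UMIs. Its 95% interval began at 1.47 against Leydig-like and at 1.76 against Sertoli-like nuclei. *Zrsr1*, with 125 germ-like UMIs, passed 2-fold against every group but mesonephric mesenchyme-like nuclei (1.55, 95% interval 0.929 to 2.74). *H13* was lower in germ-like nuclei than in each group, by 2-fold or more against 3 of the 6. *Impact*, which dampens the amino acid stress response, was at 52.3 CPM in germ-like nuclei, 83.6 in Sertoli-like, 105 in Leydig-like, 81.3 in Tacr3-led, 68.9 in progenitor-like, 69.7 in surface epithelium-like and 74.7 in mesonephric mesenchyme-like nuclei, with 2-fold passed only against Leydig-like nuclei.

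**Figure D2:**
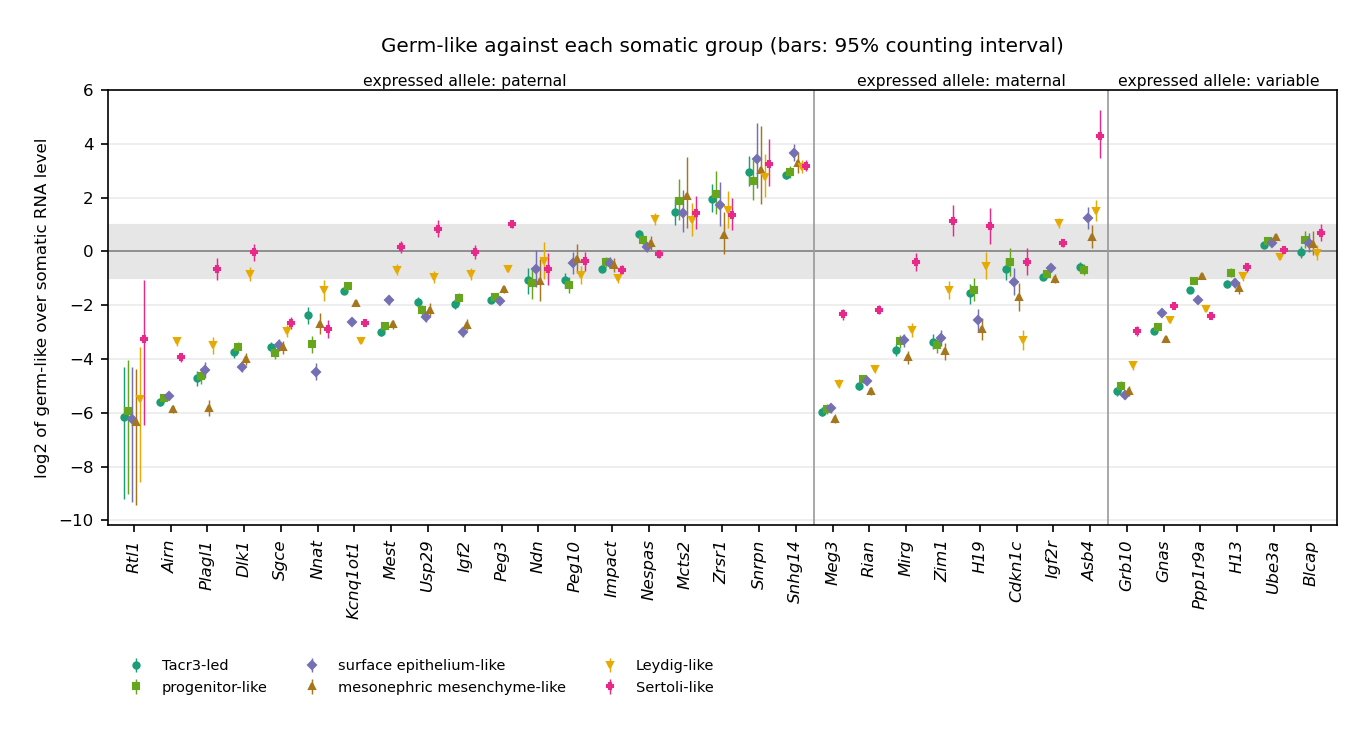
Log2 ratio of germ-like over somatic RNA level for the 33 members, a symbol for each somatic group, with bars for the 95% counting interval and a grey band for changes under 2-fold. *Snrpn*, *Snhg14* and *Mcts2* lie above the band for all 6 groups and *Airn*, *Meg3* and *Grb10* far below it, with the Sertoli-like symbol usually nearest to the band.

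The lowest members can be set beside markers of somatic cell types. As a share of the mean level of the library, *Rtl1* stood at 2.37%, *Meg3* at 2.75%, *Airn* at 3.4%, *Grb10* at 4.42%, *Rian* at 5.34% and *Plagl1* at 6.17%. The 59 somatic markers with at least 500 UMIs had a lowest share of 1.06% (*Hoxd11*), a first quartile of 10.4% and a median of 21.8%. The third quartile was 65.2% and the highest marker, *Lhx1* of the mesonephric tubule, stood at 471%. Whether the remaining UMIs of the lowest members came from germ cells or from other cells was not tested.

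The calls of the lower members depended on leaving out nuclei over the doublet threshold, in the germ-like and the somatic groups together. In the 229 germ-like nuclei over it, *Meg3* was at 648 CPM, *Airn* at 602 and *Grb10* at 338, while *Snhg14* was at 124 and *Snrpn* at 8.57. With all nuclei of each group, the ratio to the nearest somatic group became 0.982 for *Meg3*, 0.750 for *Rian*, 0.784 for *Kcnq1ot1*, 0.663 for *Nnat*, 0.595 for *Airn*, 0.571 for *Grb10*, 0.508 for *Gnas* and 0.461 for *Sgce*, so that of the 8 only *Sgce* kept the call in every comparison. The count of members lower than in Sertoli-like nuclei fell from 9 to 5, and the share of all genes was not computed for this setting.

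Of 40 further genes listed as imprinted, 39 were in the table and 24 could be tested in all 6 comparisons. Whether they are imprinted in testis cells was not measured. Of the 24 tested, 3 were higher and 4 lower than in every somatic group, where 14.2% and 5.73% of all genes were. Against the Tacr3-led group 9 of 27 tested were higher and 13 lower (27.3% and 22.0% of all genes), and against Sertoli-like nuclei 11 and 7 of 26 (23.2% and 18.6%). The counts were 9 and 8 of 24 against Leydig-like (28.5% and 20.1%), 10 and 10 of 25 against progenitor-like (29.0% and 19.5%), 6 and 10 of 26 against surface epithelium-like (26.1% and 18.4%) and 7 and 8 of 25 against mesonephric mesenchyme-like nuclei (31.4% and 16.7%). The 3 that were higher throughout were *Atp10a* (136 CPM against 4.42 to 63.1), *Zim2* (27.8 against 0 to 0.197) and *Th* (10.9 against 0 to 0.16). Lower throughout were *Casd1*, *Pon3*, *Osbpl5* and *Cd81*, among them *Osbpl5* at 1.08 CPM against 12.4 to 36.4. Of 11 genes listed for the maintenance of imprints, 10 could be tested, with 2 higher and 1 lower than in every group. *Dppa3*, which protects methylation in the early embryo, was at 36.1 CPM in germ-like nuclei and 5.95 to 9.59 elsewhere, and *Arid4a*, a chromatin factor, at 332 against 90.3 to 122. *Zfp57*, the zinc finger protein that binds methylated imprinting control regions, was at 1.45 CPM in germ-like nuclei and 22.5 to 59.1 in the somatic groups.

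Promoters of 0 to 2 members were less accessible in germ-like nuclei in each comparison, and such calls were also rare over all promoters. Promoter peaks lay within 1 kb of a transcript start in the GENCODE annotation, and 34 members had such a peak. *Rian*, *Mirg*, *Rtl1* and *Snhg14* had none. For *Snhg14* this depends on the annotation, as its RefSeq promoter window lies elsewhere (chr7:60450178-60450427). Accessibility is given as fragments at the promoter per 1000000 fragments at all peaks (FPM), with at least 20 fragments over both groups for a call. Of the members tested, 11 of 32 were more accessible in germ-like than in Tacr3-led nuclei and 1 less (16.6% and 8.56% of all promoters), 15 of 31 and 0 against Sertoli-like (17.2% and 5.13%), 6 of 31 and 1 against Leydig-like (16.4% and 4.5%) and 8 of 32 and 2 against progenitor-like nuclei (19.3% and 6.38%). Against surface epithelium-like nuclei the counts were 7 and 1 of 30 (15.2% and 4.77%), and against mesonephric mesenchyme-like nuclei 7 and 0 of 29 (20.4% and 4.25%). Among the higher calls, the intervals of *H19*, *Phlda2* and *Dlk1* against Sertoli-like nuclei began at 0.957, 0.788 and 0.997. That of *Phlda2* against progenitor-like nuclei began at 0.941. Of 29 tested in all, *Ascl2*, *Dio3*, *Igf2r*, *Snrpn* and *Mcts2* were more accessible than in every somatic group, where 6.26% of all promoters were, and 0 were less accessible than in every group, where 0.692% were. Peaks of *Peg3* are shared with *Usp29*, those of *Peg10* with *Sgce*, and 1 peak of *Nespas* with *Gnas*, so that these are not separate observations.

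The *Snrpn* promoter peaks held 81.7 FPM in germ-like nuclei (107 fragments) and 3.91 to 20.2 in the somatic groups. Most of this came from a peak at chr7:60006092-60007087 (GRCm38) whose centre lies at -1478 bases from the nearest annotated start, that is upstream of it, and within an intron of a longer *Snrpn* transcript. It held 61 fragments in germ-like nuclei and 0 to 4 in each somatic group, which is 46.6 against 0 to 2.63 FPM. Only its edge falls within 1 kb of the start. Without this peak *Snrpn* would not pass 2-fold against Sertoli-like nuclei. The peaks nearer the start had ratios of 1.42 and 2.38 there, from 25 and 21 germ-like fragments. For the RefSeq promoter windows below (GRCm38.p6, 250 bases upstream of the start) and the peak's central 300 bases, the sequence is given on the gene's strand with every CpG, the dinucleotide that carries DNA methylation, in capitals. The peak's central 300 bases (chr7:60006440-60006739, minus strand) hold 2 CpG and are shown because this peak separates the germ-like nuclei. In the genome sequence 42.3% of these 300 bases are masked as repeats or simple sequence. The *Snrpn* window (chr7:60005200-60005449, minus strand) is shown beside it.
Snrpn upstream peak: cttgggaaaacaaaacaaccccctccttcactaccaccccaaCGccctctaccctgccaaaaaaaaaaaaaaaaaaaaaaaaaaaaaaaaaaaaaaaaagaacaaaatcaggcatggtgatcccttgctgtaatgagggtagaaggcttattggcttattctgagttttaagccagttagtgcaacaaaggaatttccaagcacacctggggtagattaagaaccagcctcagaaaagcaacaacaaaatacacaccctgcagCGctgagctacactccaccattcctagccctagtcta
Snrpn promoter: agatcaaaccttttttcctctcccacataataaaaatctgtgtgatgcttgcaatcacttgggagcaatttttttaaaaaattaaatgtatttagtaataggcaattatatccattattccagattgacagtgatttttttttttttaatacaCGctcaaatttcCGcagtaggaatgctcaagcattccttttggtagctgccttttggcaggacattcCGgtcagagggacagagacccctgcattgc

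*Mcts2* had 84.7 FPM at its promoter in germ-like nuclei (111 fragments) and 27.4 to 39.4 in the somatic groups. *Igf2r* had 69.5 (91 fragments) against 13 to 31.7, although its RNA was below the somatic level in 4 of 6 comparisons. *Dio3* had 72.5 against 4.8 to 27.4 and *Ascl2* 25.2 against 3.56 to 11.8, the latter from 2 to 40 somatic fragments. The ratio to Leydig-like nuclei was 2.13 (95% interval 0.997 to 5.06) for *Ascl2*, an interval that reaches below 1. Other promoters with a germ-like value above every somatic group, though not by 2-fold throughout, included those of *Nespas* (58 against 16 to 30.2), *Zrsr1* (58 against 12.5 to 30.2), *Cdkn1c* (74 against 25.9 to 46.3) and *Peg3* (93.9 against 45.6 to 73.6). The windows of *Mcts2* (chr2:152686898-152687147, plus strand) and *Igf2r* (chr17:12769707-12769956, minus strand) are shown as CpG-dense promoters open in germ-like nuclei, with 20 and 27 CpG.
Mcts2 promoter: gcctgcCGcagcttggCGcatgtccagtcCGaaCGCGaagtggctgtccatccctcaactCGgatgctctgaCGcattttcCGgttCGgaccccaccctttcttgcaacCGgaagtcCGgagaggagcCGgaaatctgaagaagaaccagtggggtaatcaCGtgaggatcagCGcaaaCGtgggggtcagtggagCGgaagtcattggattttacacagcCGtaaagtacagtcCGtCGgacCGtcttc
Igf2r promoter: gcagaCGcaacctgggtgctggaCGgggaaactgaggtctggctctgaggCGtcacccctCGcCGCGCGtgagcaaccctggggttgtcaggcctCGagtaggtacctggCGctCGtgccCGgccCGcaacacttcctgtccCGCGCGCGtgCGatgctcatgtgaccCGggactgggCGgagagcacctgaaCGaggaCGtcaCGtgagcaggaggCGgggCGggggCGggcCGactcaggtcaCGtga

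Promoters of the members whose RNA was lowest behaved differently from each other. The *Meg3* promoter held 3.05 FPM in germ-like nuclei (4 fragments) and 8.9 to 14.4 in the somatic groups (5 to 63 fragments), with a ratio of 0.212 (95% interval 0.0562 to 0.571) to the Tacr3-led group. The *Airn* promoter held 13.7 against 14.3 to 18.2, so the promoter did not pass 2-fold while the RNA ratio was at most 0.0982. *Kcnq1ot1* had 32.1 against 13.1 to 27.8 and *Grb10* 31.3 against 10.6 to 34.2. Germ-like nuclei were the lowest for *Gnas*, which had 59.5 against 94.1 to 124, and for *Nnat*, which had 19.1 against 21 to 37.8. Summed over its 4 peaks the *Gnas* promoter passed 2-fold against Leydig-like nuclei alone, but the peaks differed. The peak with the most fragments (38 in germ-like nuclei) had ratios of 0.347 to 0.581 and was lower by 2-fold in 5 of 6 comparisons, while the peak shared with *Nespas* had ratios of 2.43 to 3.09 from 17 fragments. The windows of *Meg3* (chr12:109540746-109540995, plus strand, 10 CpG) and *Airn* (chr17:12741061-12741310, plus strand, 2 CpG) follow for comparison.
Meg3 promoter: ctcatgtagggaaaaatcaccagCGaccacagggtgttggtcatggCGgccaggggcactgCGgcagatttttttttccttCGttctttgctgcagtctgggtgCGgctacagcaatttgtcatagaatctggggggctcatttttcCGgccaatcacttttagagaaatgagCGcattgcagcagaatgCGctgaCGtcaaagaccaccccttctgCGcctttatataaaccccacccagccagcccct
Airn promoter: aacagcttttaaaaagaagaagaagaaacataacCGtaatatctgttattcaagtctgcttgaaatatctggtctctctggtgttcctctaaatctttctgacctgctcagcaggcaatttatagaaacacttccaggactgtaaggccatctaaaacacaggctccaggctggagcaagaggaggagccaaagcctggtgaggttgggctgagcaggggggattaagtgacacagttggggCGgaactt

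RefSeq windows were found for 31 members, 46 windows in all. They held a median of 10 CpG, beside 6 over 32817 windows of all genes. The letters TGCCGC, the core of the sequence that ZFP57 recognises when methylated, were searched on both strands. They were present in 6 of the 46 windows (13%), of *Meg3*, *Zim1*, *Mest*, *Plagl1* and *Mcts2*, and in 8.68% of all windows. Both *Mest* windows among the 6 overlap almost wholly, and *Snrpn* and *Snhg14* share 1 of the 46, so the windows are not separate sequences.

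**Figure D3:**
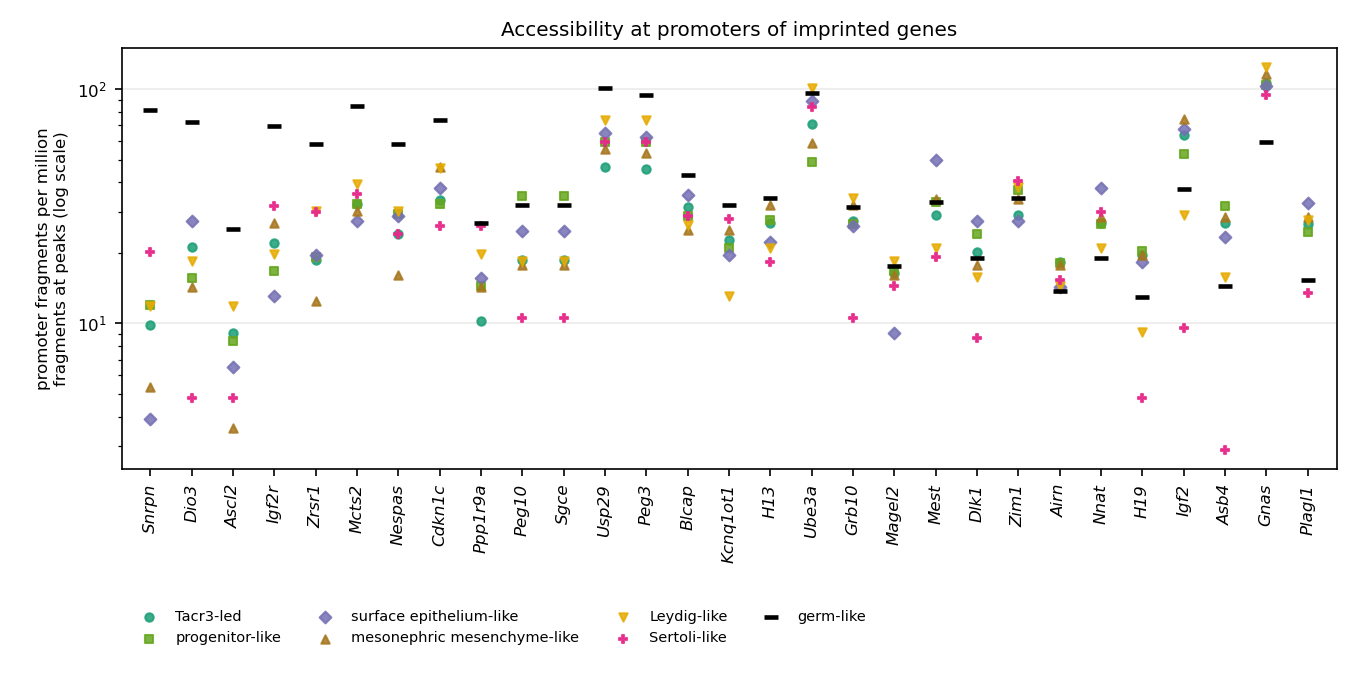
Promoter accessibility (FPM, log axis) of the 29 members tested in all 6 comparisons, in germ-like nuclei (black bars) and the somatic groups (coloured symbols), ordered by the ratio to the somatic median. *Snrpn*, *Dio3*, *Ascl2* and *Igf2r* stand first with the germ-like bar above all symbols, while the bar of *Gnas* lies under all symbols and that of *Zim1* among them.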

How the data were processed

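Nuclei of whole E14.5 mouse testes were profiled for RNA and open chromatin together. Per the labels and methods, reads were counted by the authors with Cell Ranger ARC (2.0.1, default settings, mm10), who deposited counts of UMIs per gene and of transposase cuts per peak, with the fragment list; how strand was treated is not known here. Peak intervals in the deposited table, which hold other values than counts, served as positions only. Transcript starts and gene bodies were taken from the GENCODE basic annotation of GRCm38. Nuclei were kept with over 500 genes and under 10% mitochondrial and 10% ribosomal UMIs, under 0.5% haemoglobin UMIs, over 20% of fragments at peaks and 250 to 25000 of those, which left 7668 of 9833 barcodes. Scrublet (scanpy 1.11.5) then removed 470 (6.13%) by rank, at 0.8% per 1000 nuclei, and nuclei over its automatic threshold were clustered but left out of sums. The study used other doublet and ambient RNA tools. Nuclei were clustered with Seurat 5.3.0 on RNA and accessibility jointly at resolution 0.3, with 88 genes (members and lists) and 210 peaks within 10 kb of members left out, and named by marker genes. Kept nuclei had medians of 7948 UMIs and 4477 fragments.

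Levels are UMIs per 1000000 of a group, with exact Poisson intervals; ratios have exact conditional binomial intervals, and all cover counting error only. Levels were not scaled by length and are not compared between genes. A call needs 2-fold and 50 UMIs, or 20 fragments at promoters, with no p-value. On simulated counts (germ-like against Sertoli-like, 13148 genes, 200 changed 4-fold), 92.5% of changed and 0.139% of unchanged genes were called. The simulated counts held no doublets, ambient RNA or spread between nuclei, so these shares cover counting error only. All members are accounted for: those with 200 UMIs or more over the compared groups are given with each level and the rest by counts, and genes outside the members are named only from 2 lists where past 2-fold against every somatic group, besides markers and cluster leaders. Members and lists were chosen with earlier results of these data known. Alternatives changed the nuclei kept, scaling, minimum counts, clustering, promoter window and ambient subtraction. A division of the germ-like nuclei at a finer resolution is not reported here.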

Additional observations from a re-analysis of the deposited data

How the results depend on the processing

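No paired analysis was possible because each assay has 1 library. Of 272 recomputed counts, 235 stayed within 1.5 times the reported value and 37 moved. Of 124 recomputed ratios of single members to the nearest somatic group, 112 stayed within it and 12 moved. Shares of all genes or promoters were not recomputed under the alternatives. The cause of these changes was not tested beyond what an alternative's own construction shows. With all nuclei of each group, germ-like and somatic alike, 5 members were lower than in Sertoli-like nuclei (reported 9), and 1 paternal and 0 maternal members were lower and 1 maternal member higher than in every somatic group. Promoter calls under that setting were 2 lower and 7 higher against the Tacr3-led group, and 1, 1 and 0 lower against Sertoli-like, progenitor-like and surface epithelium-like nuclei. Ambient subtraction gave 23 members lower than in Leydig-like nuclei and 0 maternal members lower than in every group. For the latter, *Meg3* and *Rian* had no UMI left in germ-like or in Sertoli-like nuclei, so that this ratio had no value. *Sgce*, *Grb10*, *Airn*, *Nnat* and *Gnas* had no UMI left in germ-like nuclei either. The subtraction removed 21.6% of germ-like UMIs with the library's profile, although *Hoxd11* stood at 1.06% and *Meg3* at 2.75% of the library level. It therefore takes away too much and its values correct nothing. Clustering on accessibility alone gave 4 members higher than in Leydig-like nuclei, a *Meg3* ratio of 0.120 to the nearest group, and no counterpart of the progenitor-like and mesonephric mesenchyme-like groups. A minimum of 20 UMIs gave 1 maternal member higher than in every group. A minimum of 200 UMIs, which tests fewer genes, gave 2, 4, 2, 1 and 3 members higher than in Tacr3-led, Sertoli-like, progenitor-like, mesonephric mesenchyme-like and surface epithelium-like nuclei, 1 paternal member higher than in every group, and no value for *Mcts2*.

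For promoters, cuts as deposited gave 2, 1, 2, 4 and 2 members lower than in Tacr3-led, Sertoli-like, Leydig-like, mesonephric mesenchyme-like and surface epithelium-like nuclei. A 2 kb window gave 0, 0 and 1 lower than in Tacr3-led, Leydig-like and progenitor-like and 11 higher than in mesonephric mesenchyme-like nuclei. A minimum of 50 fragments gave 1 lower than in progenitor-like and 0 lower than in surface epithelium-like nuclei. Clustering on RNA alone gave 1 lower and 12 higher against mesonephric mesenchyme-like nuclei, resolution 0.6 gave 1 and 2 lower against mesonephric mesenchyme-like and surface epithelium-like nuclei, and TMM scaling gave 0 lower than in Leydig-like and in surface epithelium-like nuclei and 14 higher than in mesonephric mesenchyme-like nuclei. Low fragment counts, such as 4 at the *Meg3* promoter in germ-like nuclei, limit these calls.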
